A study of Danio rerio with 8 samples.

Results

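The cytosolic ribosomal protein genes of the zebrafish were taken by their symbols alone, as every row whose name begins with rpl or rps and a digit, with rplp and a digit from 0 to 2, with rpsa or with fau, leaving out the 6 rows of ribosomal S6 kinases. The rule gave 83 of the 14781 rows of the count table, 47 named for the large subunit and 36 for the small one. The rule itself uses no measured value, but this family was chosen with earlier results of these data known. One of the 83, rpl7l1, is a relative of rpl7 that is not known as a part of the mature ribosome, and its values are given apart where they matter. The study sequenced RNA of sorted tumour cells in 2 groups of 4 libraries. The myrAKT group held mCherry-positive cells of ganglioneuroma, a mature tumour of the sympathetic nervous system, from fish carrying myristoylated AKT, a form of this kinase that is anchored to the membrane. In the MYCN group were EGFP-positive cells of neuroblastoma, its immature counterpart, from fish carrying a MYCN transgene. The labels give no treatment and name neither the promoter of either transgene nor the age of the fish or the number of fish behind a library, so a p-value here measures only how these libraries vary, which may be technical. Genotype, tumour type and sorting colour went together in every library and cannot be told apart.

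A ribosome is made of a small subunit, which reads the messenger RNA, and a large subunit, which joins the amino acids. Most ribosomal proteins are needed in about the same amount, and in vertebrates most are encoded by 1 active gene. The zebrafish keeps a few genes in duplicate. MYC proteins are known to raise the transcription of ribosomal protein genes and of ribosomal RNA. AKT acts through mTORC1, which raises above all the translation of these messenger RNAs, many of which start with a run of pyrimidines called a 5′ TOP motif. Read counts measure the amount of messenger RNA and not its translation.

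The libraries held between 25948623 and 43083220 counts in myrAKT and between 36984845 and 55827123 in MYCN, and the ribosomal protein genes had between 3326339 and 5856684 of them in myrAKT and between 10150461 and 19686973 in MYCN. The labelled tissue was checked with 7 genes of sympathoadrenal cells, the noradrenaline-making lineage of these tumours. Their summed level was between 1918 and 4211 CPM across myrAKT libraries and between 8572 and 9984 CPM across MYCN libraries, and none was at 0 in either group. CPM are counts scaled to a common library size with TMM factors. Of the 7 sympathoadrenal genes, 6 were lower in myrAKT and 1 did not pass in the edgeR test described below. That test called 38.4% of all genes lower and 37.6% higher. Markers of other cell types were higher in the same myrAKT libraries. All 8 leukocyte genes tested rose, with summed levels of 14273 to 18019 CPM across myrAKT libraries and 314 to 1022 CPM across MYCN libraries. The 5 erythroid genes rose too, with 3259 to 7787 CPM in myrAKT against 27.9 to 120 CPM across MYCN libraries. The 7 endothelial genes rose, at 327 to 501 CPM against 5.61 to 15.1 CPM, and so did the 6 kidney tubule genes, at 1105 to 4041 CPM in myrAKT against 6.81 to 22.7 CPM across MYCN libraries. Of 7 stromal genes tested 6 rose, with sums of 471 to 632 CPM across myrAKT libraries and 22.3 to 54.4 CPM across MYCN libraries. No marker was at 0 in all libraries of a group. The genes with the smallest adjusted p of each list were slc18a2 and phox2a, at -2.54 and -3.26 on the log2 scale, spi1b and mpx of leukocytes (5.25 and 6.56), epb41b and gata1a of red cells (6.31 and 5.70), fli1a and pecam1 of endothelium (6.32 and 5.44), slc12a3 and atp1a1a.4 of kidney (9.79 and 8.96), and fn1b and cxcl12a of stroma (4.94 and 4.92). The part of these cells in the results below was not tested, and in sorted bulk RNA fewer cells of a type and less RNA per cell cannot be told apart.

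Ribosomal protein genes took 14.2, 13.6, 14.2 and 12.8% of all counts in myrAKT libraries 1 to 4, against 32.4, 28.8, 25.9 and 35.3% in MYCN libraries 1 to 4. The means were 13.7 ± 0.656% in myrAKT and 30.6 ± 4.08% in MYCN (SD, n = 4 each). The groups did not overlap, and the MYCN libraries were spread far more widely than the myrAKT libraries. Large subunit genes took 8.305 ± 0.3998% of counts in myrAKT and 18.4 ± 2.41% in MYCN, and small subunit genes 5.40 ± 0.256% in myrAKT and 12.2 ± 1.68% in MYCN. The lower share was therefore spread over both subunits in nearly the same proportion.

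**Figure D1:**
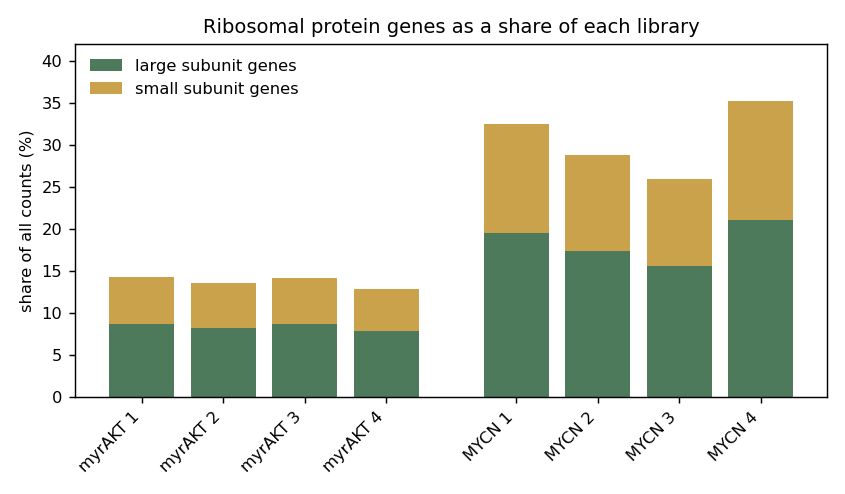
Share of all counts (%) held by ribosomal protein genes in each library, split into large and small subunit genes. The myrAKT libraries lie between 12.8 and 14.2% and the MYCN libraries between 25.9 and 35.3%.

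The balance of the subunits was examined as the ratio of large to small subunit counts, which does not depend on how libraries are scaled. It was 1.533, 1.537, 1.547 and 1.537 in myrAKT libraries 1 to 4, and 1.517, 1.521, 1.512 and 1.489 in MYCN libraries 1 to 4. Every myrAKT library was above every MYCN library, and the means were 1.538 ± 0.00618 in myrAKT and 1.510 ± 0.0143 in MYCN. The mean log2 ratio was higher in myrAKT by 0.03 from these summed counts, in which heavily read genes weigh most, and by 0.15 from the median log2 CPM of large and small subunit genes. The median log2 fold changes of the genes, myrAKT over MYCN with TMM factors, lay closer together, at -1.54 for large and -1.60 for small subunit genes. Large subunit genes held 60.6 ± 0.0958% of ribosomal protein counts in myrAKT and 60.2 ± 0.228% in MYCN (SD, n = 4 each). MYCN 4 was the lowest library, and without it the MYCN mean was 1.517.

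Gene by gene, the comparison of myrAKT with MYCN was tested with edgeR's quasi-likelihood test over all 12126 genes that passed its filter on low counts, and all 83 members passed it. With TMM factors 81 of the 83 were lower in myrAKT, 1 was higher and 1 did not pass at an adjusted p of 0.05, whereas with dbh and th counts as the scale, 1 was lower, 3 were higher and 79 did not pass. The TMM test called 76.0% of all genes, 38.4% lower and 37.6% higher. With dbh and th as the scale, 1029 of the 12126 genes were lower and 8320 were higher. Every myrAKT library was below every MYCN library for 81 members, where 36.3% of all genes were so. The members' log2 fold changes, myrAKT over MYCN, had a median of -1.57, with quartiles at -1.66 and -1.44. For all tested genes the median was -0.04 and the quartiles were -1.03 and 1.48, so the ribosomal protein genes formed a narrow band within a wide distribution. All 47 large subunit genes fell (median -1.54), and of the 36 small subunit genes 34 fell, with a median of -1.60. These sizes are those with TMM factors. With library totals in their place, the members' median was -1.16 and that of all tested genes 0.34. The scaling on dbh and th, a noradrenaline-synthesis enzyme and tyrosine hydroxylase, moved the median of all tested genes to 1.45 and that of the members to -0.03, with 36 members above 0 and 47 below. With TMM factors dbh and th were themselves at -1.42 and -1.33. The other sympathoadrenal genes ran from -0.34 (ddc, which did not pass) to -3.26 (phox2a), with phox2bb at -2.35. Scaling on any of those others was not tested.

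A scaling moves nearly all genes by the same amount, so the distance of the members from the other genes cannot test it. The members' median less the median of all genes was -1.53 with TMM factors and -1.47 with dbh and th.

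The counts behind the last scaling were as follows. Dbh and th together took 0.163, 0.229, 0.303 and 0.391% of all counts in myrAKT libraries 1 to 4, and 0.520, 0.551, 0.576 and 0.494% in MYCN libraries 1 to 4. The number of ribosomal protein counts per dbh and th count was 87.5, 59.4, 46.8 and 32.8 in myrAKT libraries 1 to 4, against 62.4, 52.3, 45.1 and 71.3 in MYCN libraries 1 to 4. These ratios overlapped between the groups, with means of 56.6 ± 23.3 in myrAKT and 57.8 ± 11.5 in MYCN. Within myrAKT the dbh and th share differed widely between libraries while the ribosomal protein share stayed between 12.8 and 14.2%.

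**Figure D2:**
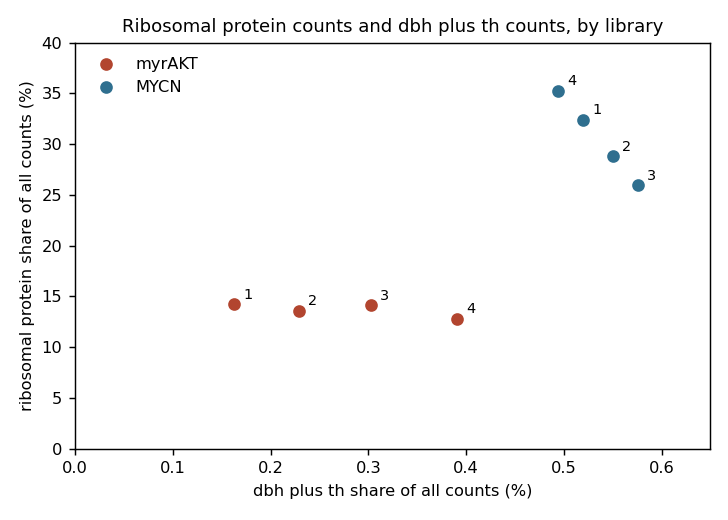
Share of all counts (%) held by ribosomal protein genes against the share held by dbh plus th, 1 point a library, numbered by replicate. The myrAKT libraries lie between 12.8 and 14.2% on the vertical axis over a range of 0.163 to 0.391% on the horizontal one, and the MYCN libraries lie above and to the right of them.

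The 5 members with the highest mean CPM were rplp0, rps2, rpsa, rpl3 and rpl6. Rplp0, at -2.16, and rpl3, at -1.15 on the log2 scale, lay outside the family's quartiles and are described below. Rps2, at the entry channel for messenger RNA, had 4707, 4214, 4548 and 3970 CPM in myrAKT libraries 1 to 4, against 13162, 10866, 8502 and 14739 CPM in MYCN libraries 1 to 4. Every myrAKT library was below every MYCN library, and the log2 fold change, with its SE, was -1.44 ± 0.19 at an edgeR adjusted p of 7.8e-05. Rpsa, a small subunit protein also known as the laminin receptor, averaged 3164 ± 366 CPM across myrAKT libraries and 9633 ± 1834 CPM across MYCN libraries. For rpl6 the means were 2988 ± 276 CPM across myrAKT libraries and 8983 ± 2334 CPM across MYCN libraries (log2 fold change -1.59). Rps6, which is the substrate that gave the S6 kinases below mTORC1 their name, was singled out after its values were seen: it averaged 2115 ± 213 CPM across myrAKT libraries and 6410 ± 1589 CPM across MYCN libraries, -1.60 ± 0.20 on the log2 scale (edgeR adjusted p = 5.7e-05). Rps2, rpsa, rpl6 and rps6 did not pass relative to the family in the test described next.

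To see which genes moved relative to the rest of the family, the same edgeR test was run with each library scaled to its summed ribosomal protein counts. A gene at 0 on this scale differs between the groups as the family does. The scale called 79.3% of all genes, 8.02% lower and 71.3% higher, since it lifts whatever fell less than the family, so these percentages describe genes outside it. Among the 83 members 65 did not pass, 8 were lower and 10 were higher in myrAKT relative to the family, and 63 were within 0.25 of 0. The adjustment of p ran over all 12126 genes, most of which were called, so it sets no error rate among the 83 members alone. The members that passed with the largest adjusted p were rpl21 (edgeR, 0.030), rpl24 and rps4x (edgeR, both 0.016). Seen by subunit, 6 large and 2 small subunit genes were lower, and 7 large and 3 small subunit genes were higher. Of these 18 calls 17 were kept when each library was left out in turn, and the exception was rpl21, at 0.28 ± 0.11 (edgeR adjusted p = 0.030). The members' fold changes relative to the family do not depend on the choice between TMM factors and dbh and th discussed above. Their adjusted p and the percentages of all genes called belong to the family scale itself.

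**Figure D3:**
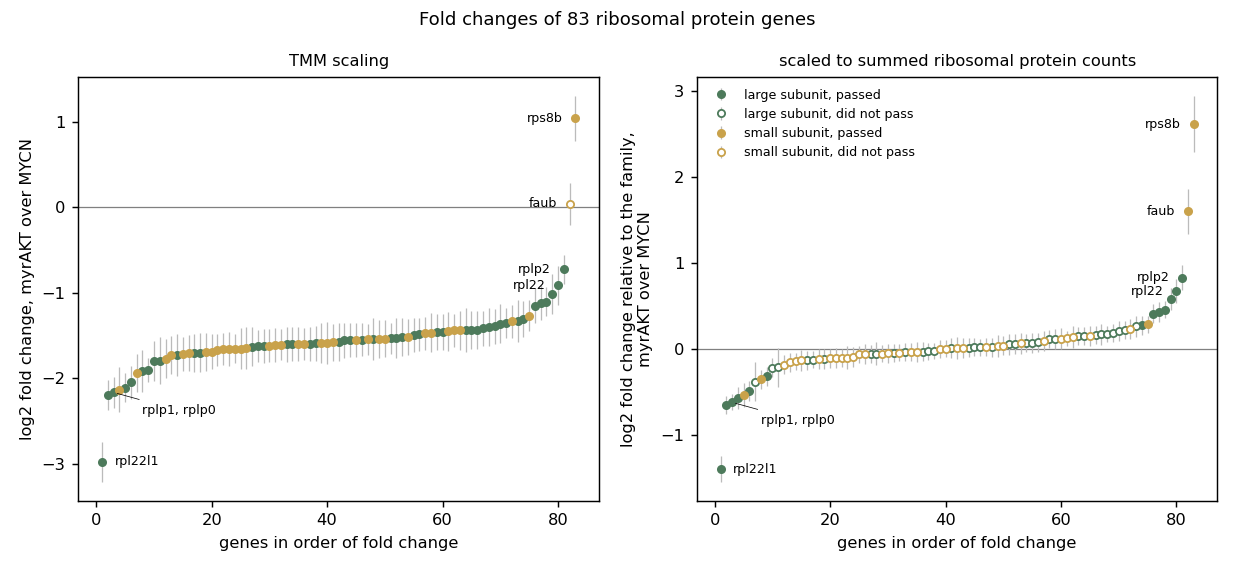
Log2 fold changes (myrAKT over MYCN, with SE as bars) of the 83 genes in rank order, with TMM factors on the left and scaled to the summed ribosomal protein counts on the right; filled points passed an adjusted p of 0.05. On the left 81 genes lie below 0 (47 would with libraries scaled on dbh and th), and on the right most open points lie near 0 with rpl22l1 lowest and rps8b highest.

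The stalk of the large subunit is the flexible arm that recruits translation factors, and it is built from the products of rplp0, rplp1 and the rplp2 genes. Rplp0, its base, had 4422, 4220, 4227 and 3581 CPM in myrAKT libraries 1 to 4, against 21340, 17362, 13949 and 21034 CPM in MYCN libraries 1 to 4. The groups were far apart, and the log2 fold change was -2.16 ± 0.18 (edgeR adjusted p = 3.6e-06). As a share of ribosomal protein counts it held 3.42, 3.46, 3.41 and 3.40% in myrAKT libraries 1 to 4 and 5.50, 5.46, 5.58 and 4.45% in MYCN libraries 1 to 4, so it was lower within the family as well, by 0.62 ± 0.09 on the log2 scale (edgeR adjusted p = 4.1e-05). Rplp1 held 1.49, 1.53, 1.47 and 1.48% in myrAKT libraries and 2.26, 2.44, 2.57 and 2.08% in MYCN libraries, which was -0.65 ± 0.11 relative to the family (edgeR adjusted p = 7.1e-05). Of the 2 genes for the third stalk protein, rplp2l was lower relative to the family (-0.49 ± 0.12, edgeR adjusted p = 0.0020) and rplp2 was higher (0.83 ± 0.14, edgeR adjusted p = 1.1e-04). The 4 genes together held 5.97 ± 0.0922% of ribosomal protein counts in myrAKT and 8.70 ± 0.762% in MYCN (SD, n = 4 each).

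Other members below the family were rpl27a, a large subunit protein, and rps12, rps18 and rpl24. Rpl27a held 0.729, 0.723, 0.738 and 0.703% of ribosomal protein counts in myrAKT libraries 1 to 4, against 1.12, 1.17, 1.13 and 0.870% in MYCN libraries 1 to 4. Its MYCN 4 value lay nearest to the myrAKT range, and the difference relative to the family was -0.57 ± 0.13 (edgeR adjusted p = 0.0011). Rps12, of the small subunit, held 0.627, 0.659, 0.629 and 0.603% in myrAKT libraries and 0.783, 0.895, 0.861 and 1.11% in MYCN libraries, where MYCN 4 was the highest (-0.53 ± 0.14 relative to the family, edgeR adjusted p = 0.0026). Rps18, at the contact between the subunits, and rpl24, whose tail forms a bridge to the small subunit, passed too and are named because of their values. They were at -0.35 ± 0.11 and -0.31 ± 0.11 relative to the family.

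The 10 members above the family were rps8b, faub, rplp2, rpl22, rpl39, rpl8, rpl4, rpl3, rps4x and rpl21. Those outside the pairs are given here. Rpl39, a very small protein that lines the exit tunnel, held 0.944, 0.942, 0.952 and 0.925% of ribosomal protein counts in myrAKT libraries 1 to 4, against 0.575, 0.625, 0.594 and 0.722% in MYCN libraries 1 to 4. The groups were separate, and the difference relative to the family was 0.58 ± 0.12 (edgeR adjusted p = 7.1e-04), although with TMM factors rpl39 was lower, at -1.01 ± 0.24 (edgeR adjusted p = 0.0031; 0.54 scaled on dbh and th). Rpl3, next to the peptidyl transferase centre, held between 3.20 and 3.27% in myrAKT libraries and 2.79, 2.53, 2.32 and 2.05% in MYCN libraries 1 to 4, a relative difference of 0.41 ± 0.11 (edgeR adjusted p = 0.0031). Named for their values, rpl4, which also reaches into the tunnel, and rpl8, of the catalytic centre, were at 0.43 ± 0.12 and 0.46 ± 0.10. Rps4x, a small subunit protein encoded on the X chromosome in humans, was at 0.29 ± 0.10 (edgeR adjusted p = 0.016). Rpl17, another protein of the tunnel wall, was at -0.05 ± 0.10 and did not pass.

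The genes of the particle formed by rpl5 and rpl11 proteins with their ribosomal RNA, which binds MDM2 when assembly is disturbed, did not pass relative to the family with all 8 libraries. Rpl5a was at 0.08 ± 0.11, rpl5b at 0.16 ± 0.10 and rpl11 at -0.21 ± 0.11 (edgeR adjusted p between 0.0975 and 0.5061). Without MYCN 3 rpl11 passed, at -0.23 ± 0.10 (edgeR adjusted p = 0.0491). Rps27a, which encodes ubiquitin fused to a small subunit protein, averaged 1498 ± 139 CPM across myrAKT libraries and 4476 ± 1337 CPM across MYCN libraries and was at -0.002 ± 0.11 relative to the family.

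Pairs of related genes were compared by the share of the pair's counts that fell on the copy less read over all libraries, which does not depend on scaling either. Of 21 pairs listed from gene symbols, 8 had both genes in the table, and 5 of these differed between the groups with no overlap. Each of the 5 gave p = 0.0286 in a two-sided exact permutation test of the library labels, the smallest that 4 against 4 libraries allow, and p = 0.0457 after Benjamini-Hochberg adjustment over the 8 pairs. The adjusted p passed only because so many of the 8 pairs reached that smallest p together. Pairs of unrelated genes were not compared, so no background share stands beside the 5, and the TMM test called 76.0% of all genes. Counts were not corrected for transcript length, so a share below 50% does not show which copy has more messenger RNA. The treatment of reads that fit both copies is not given in the sources used here, and the split between near-identical copies is uncertain in level.

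In percentage points the largest of these shifts was between rpl22, a large subunit protein that binds structured RNA, and its paralog rpl22l1, which in mice can replace it in ribosomes and is held down by it. Rpl22l1 held 23.3, 25.1, 22.7 and 22.5% of the pair's counts in myrAKT libraries 1 to 4, against 52.7, 54.8, 59.3 and 58.0% in MYCN libraries 1 to 4. It was thus the minor copy in every myrAKT library and the major one in every MYCN library, by read counts. Its mean share was 23.4 ± 1.19% in myrAKT and 56.2 ± 2.97% in MYCN, a difference of -32.8 percentage points. In level, rpl22l1 had 211, 223, 202 and 170 CPM in myrAKT libraries 1 to 4, against 1722, 1335, 1073 and 2197 CPM in MYCN libraries 1 to 4. This was the lowest fold change of the family, 7.85-fold lower in myrAKT, or -2.97 ± 0.23 on the log2 scale (edgeR adjusted p = 2.3e-06). With libraries scaled on dbh and th, 47 members were below 0, and rpl22l1 was the only one of them that passed. Rpl22 itself had 694, 664, 691 and 588 CPM in myrAKT libraries, against 1543, 1101, 738 and 1588 CPM in MYCN libraries 1 to 4. The MYCN libraries ranged widely, with MYCN 3 close to the myrAKT values, and the log2 fold change was -0.91 ± 0.23 (edgeR adjusted p = 0.0047). Relative to the family rpl22l1 was at -1.39 ± 0.15 (edgeR adjusted p = 1.1e-06) and rpl22 at 0.68 ± 0.14 (edgeR adjusted p = 5.9e-04).

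The stalk genes rplp2 and rplp2l had the next largest shift in percentage points. On the log2 ratio of the copies the order was another: the difference was 2.54 for rps8b over rps8a, -2.07 for rpl22l1 over rpl22, 1.78 for faub over faua, 1.32 for rplp2 over rplp2l and -0.33 for rps26 over rps26l. Rplp2 held 39.8, 40.05, 40.6 and 41.3% of the pair in myrAKT libraries 1 to 4, against 20.9, 20.5, 22.5 and 21.7% in MYCN libraries 1 to 4. All libraries lay close to their group means of 40.4 ± 0.683% in myrAKT and 21.4 ± 0.888% in MYCN. In level rplp2 averaged 513 ± 47.3 CPM across myrAKT libraries and 848 ± 188 CPM across MYCN libraries, and rplp2l 757 ± 90.1 CPM across myrAKT libraries and 3121 ± 706 CPM across MYCN libraries. The fold changes of the 2 copies were -0.73 ± 0.17 (edgeR adjusted p = 0.0032) and -2.04 ± 0.19 (edgeR adjusted p = 7.6e-06).

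The rps26 pair, whose protein sits at the exit channel for messenger RNA, shifted much less. Rps26 held 31.9, 32.8, 33.2 and 33.9% of the pair's counts in myrAKT libraries 1 to 4, against 38.7, 37.3, 38.7 and 38.01% in MYCN libraries 1 to 4. The difference of -5.21 percentage points was larger than the spread in either group, which was 0.864 points in myrAKT and 0.641 points in MYCN (SD, n = 4 each). With TMM factors both copies fell, rps26 by 1.67 and rps26l by 1.33 on the log2 scale. Relative to the family rps26l was at 0.23 ± 0.12 and did not pass (edgeR adjusted p = 0.0871), and without MYCN 3 it passed at 0.24 ± 0.09 (edgeR adjusted p = 0.037).

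In 2 pairs the minor copy had few reads. Faua and faub encode a ubiquitin-like protein fused to a small subunit protein. Faub held 1.87, 2.03, 2.21 and 2.18% of the pair in myrAKT libraries 1 to 4, against 0.431, 0.572, 0.789 and 0.717% in MYCN libraries 1 to 4. Its level was 14.5, 14.8, 16.01 and 13.6 CPM in myrAKT libraries and 9.99, 11.5, 13.01 and 22.8 CPM in MYCN libraries, so that the groups overlapped and MYCN 4 exceeded all others. It was the 1 member that did not pass with TMM factors (0.04 ± 0.25, edgeR adjusted p = 0.889), while without MYCN 4 it passed at 0.35 (edgeR adjusted p = 0.030). Faua averaged 699 ± 63.4 CPM across myrAKT libraries and 2275 ± 647 CPM across MYCN libraries, so that its log2 fold change was -1.70.

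Rps8b was the member that rose. It had 5.09, 4.68, 7.46 and 8.71 CPM in myrAKT libraries 1 to 4, from 217, 225, 332 and 275 reads, against 3.42, 2.75, 2.51 and 3.86 CPM in MYCN libraries 1 to 4, from 145, 92, 102 and 161 reads. The groups did not overlap, and the log2 fold change was 1.04 ± 0.26 (edgeR adjusted p = 0.0045). Its share of the pair was 0.209, 0.206, 0.312 and 0.433% in myrAKT libraries 1 to 4, against 0.0489, 0.0468, 0.0565 and 0.0387% in MYCN libraries 1 to 4. The exact (Clopper-Pearson) 95% interval of the lowest myrAKT share ran from 0.180 to 0.234%, and that of the highest MYCN share from 0.0461 to 0.0686%, which covers counting error only. Its partner rps8a moved with the family, at 0.007 ± 0.10 relative to it, with 2272 ± 191 CPM across myrAKT libraries and 6815 ± 2343 CPM across MYCN libraries.

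**Figure D4:**
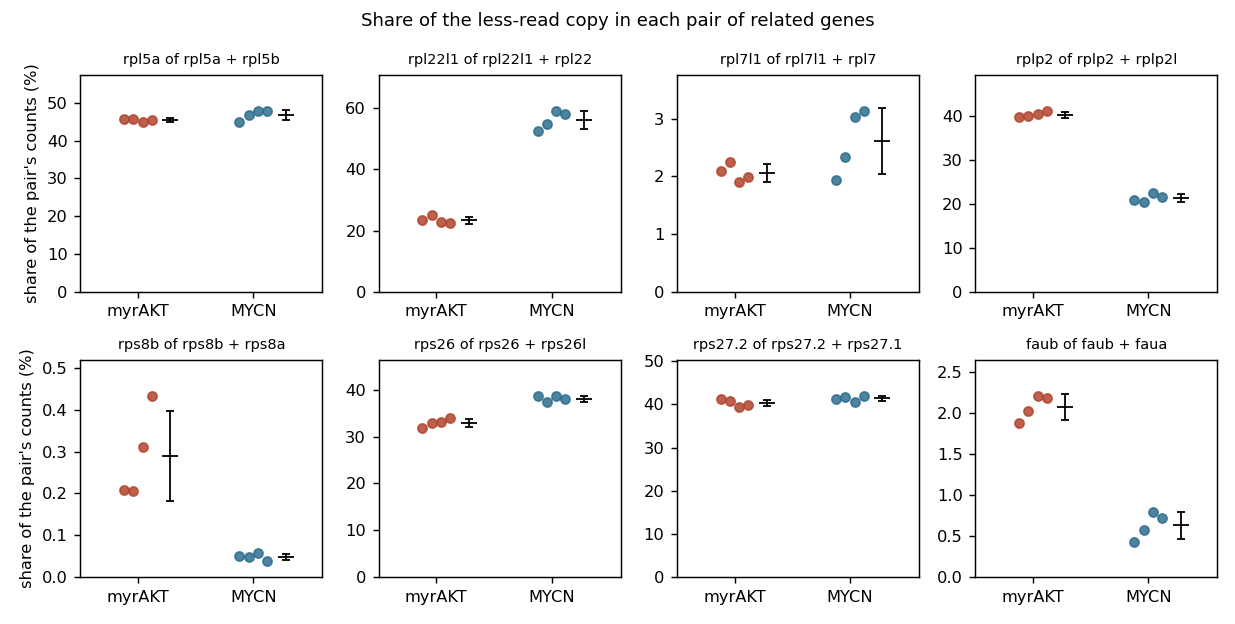
Share (%) of each pair's counts held by its less-read copy in the 4 myrAKT and 4 MYCN libraries (points), with the mean and SD beside them; each panel has its own axis from 0. The shares of rpl22l1, rplp2, rps8b, rps26 and faub do not overlap between the groups, and those of rpl5a, rpl7l1 and rps27.2 do.

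The other pairs had overlapping groups. Rpl5a held 45.5 ± 0.438% of the rpl5 pair in myrAKT and 46.8 ± 1.40% in MYCN (exact permutation p = 0.114, adjusted 0.131). Rps27.2 held 40.3 ± 0.765% of its pair with rps27.1 in myrAKT and 41.4 ± 0.592% in MYCN (exact permutation p = 0.0857, adjusted 0.114). Rpl7l1 held 2.08, 2.25, 1.89 and 1.99% of its counts plus those of rpl7 in myrAKT libraries, against 1.94, 2.33, 3.04 and 3.14% in MYCN libraries 1 to 4 (exact permutation p = 0.143, adjusted 0.143). In level rpl7l1 averaged 39.97 ± 5.19 CPM across myrAKT libraries and 139 ± 63.8 CPM across MYCN libraries, and rpl7 1902 ± 179 CPM across myrAKT libraries and 5128 ± 1597 CPM across MYCN libraries.

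Within the groups the make-up of the family was far more even in myrAKT than in MYCN. The SD over 4 libraries of a gene's log2 share of ribosomal protein counts had a median of 0.024 in myrAKT and 0.092 in MYCN over the 83 genes, and it was larger in MYCN for 74 of them. MYCN 4 differed most: its median distance from the mean of the other 3 libraries was 0.128 on the log2 scale, against 0.0446 to 0.0761 for the other MYCN libraries and 0.0185 to 0.0301 for the myrAKT libraries. In MYCN 4, 37 genes were above the range of MYCN libraries 1 to 3 and 26 were below it, or 63 outside it. Counted in the same way, 20 to 46 genes were outside the range for the other MYCN libraries. For the myrAKT libraries the number was 34 to 52. Every gene has a highest and a lowest library in each group, so such counts are large in any set of 4 libraries. Rpl4 held 1.56% of ribosomal protein counts in MYCN 4, against 2.19, 2.18 and 2.17% in MYCN libraries 1 to 3. Rpl32, of the large subunit, held 1.30% against 1.03, 1.02 and 1.02%. Both were named for these values. Without MYCN 4 the SD had a median of 0.040 in MYCN, and the calls relative to the family were 8 lower and 13 higher, with all 18 of those reported among them.

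**Figure D5:**
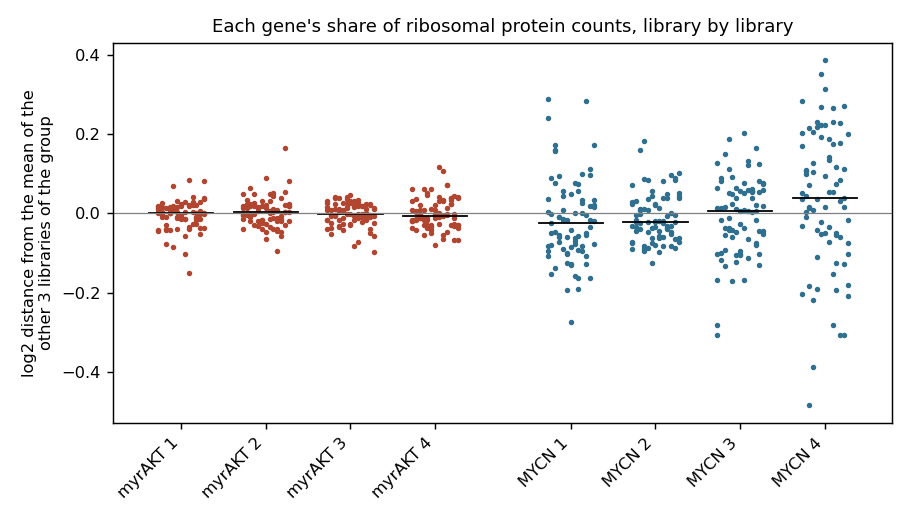
Log2 distance of each gene's share of ribosomal protein counts from its mean in the other 3 libraries of the same group, 1 point a gene and the median as a line, for the 79 genes left after rps8b, faub, rpl7l1 and rpl37, which have few reads. The points of the myrAKT libraries stay closest to 0, and those of MYCN 4 spread most widely.

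The fewest reads of the large subunit genes fell on rpl37, with between 284 and 493 reads a library in myrAKT and between 1127 and 1768 in MYCN. At 9.63 ± 0.985 CPM across myrAKT libraries and 36.1 ± 4.32 CPM across MYCN libraries it fell with the family by 1.90 ± 0.14 on the log2 scale with TMM factors (edgeR adjusted p = 1.4e-06), and relative to the family it was at -0.38 ± 0.23 (edgeR adjusted p = 0.140). Whether its reads were shared with a copy elsewhere in the genome was not tested.

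Rack1, a scaffold on the small subunit that the symbol rule does not take, listed under its older symbol gnb2l1, averaged 2828 ± 273 CPM across myrAKT libraries and 8406 ± 1757 CPM across MYCN libraries, which is -1.57 ± 0.18 on the log2 scale with TMM factors (edgeR adjusted p = 3.3e-05). It did not pass with libraries scaled on dbh and th. A list of 9 other genes was also examined, most of which help ribosomal proteins into the ribosome or take part in its assembly. All 9 fell with a median of -1.82, beside 38.4% of all genes. The strongest calls were bccip, at 66.9 ± 5.09 CPM across myrAKT libraries and 398 ± 70.6 CPM across MYCN libraries, and aamp, at 68.5 ± 6.72 CPM across myrAKT libraries and 370 ± 34.0 CPM across MYCN libraries. With libraries scaled on dbh and th, 3 of the 9 were lower and none higher, beside 1029 lower and 8320 higher of all 12126 genes.

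Genes whose messenger RNAs carry a 5′ TOP motif in mammals, most of them translation genes, were counted in the same way. Of 28 tested, with TMM factors, 22 fell, 2 rose and 4 did not pass, with a median of -0.94, again beside 38.4% of all genes lower and 37.6% higher. The 2 that rose, named for their values, were eef1a1b and vim. Eef1a1b averaged 4.81 ± 0.910 CPM across myrAKT libraries and 0.725 ± 0.376 CPM across MYCN libraries. Vim, which is not a translation gene, averaged 15.8 ± 5.58 CPM across myrAKT libraries and 7.93 ± 3.92 CPM across MYCN libraries. With library totals 18 fell and 4 rose, beside 3348 lower and 5507 higher of all 12126 genes. Scaled on dbh and th 2 fell and 9 rose, beside 1029 lower and 8320 higher of all genes. Pabpc4, a poly(A)-binding protein, averaged 14.4 ± 2.88 CPM across myrAKT libraries and 640 ± 107 CPM across MYCN libraries, and eif4a2, a helicase of translation initiation, 36.3 ± 1.5 CPM across myrAKT libraries and 327 ± 74.4 CPM across MYCN libraries. These had the smallest adjusted p of the list, at most 4.0e-07 with edgeR. Pabpc1a, a more heavily read poly(A)-binding protein gene chosen after its values were seen, averaged 3219 ± 320 CPM across myrAKT libraries and 3058 ± 402 CPM across MYCN libraries and did not pass (edgeR adjusted p = 0.664).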

How the data were processed

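Raw read counts by gene symbol for 8 libraries came in 1 table, deposited by the authors without normalization. The submitters' processing notes name edgeR, HTSeq 0.6.1, SAMtools 1.5, TopHat2 2.1.1, Trim Galore 0.4.4, FastQC 0.11.5 and GRCz10, in no order. The sources used here give no annotation, strandedness or handling of multiply matching reads. Per the labels' protocols, total RNA of sorted cells was depleted of ribosomal RNA; the labels also call it polyA RNA.

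The main test was that of edgeR 4.0.16 under R 4.3.3 (filterByExpr, TMM, robust quasi-likelihood F test, two-sided, Benjamini-Hochberg over 12126 genes, threshold 0.05). SE is the fold change over the square root of F. A second fit scaled libraries to the summed counts of the 83 members. Alternatives were DESeq2 1.42.0, other scalings, no filter, the replicate number as a block, and each library left out. Pairs needed 10 counts in every library and were tested by exact permutation over 70 splits (SciPy 1.17.1). Both fits were run on simulated data in which few genes changed, as many up as down. The TMM fit called 59 of 100 2-fold and 93 of 98 4-fold changes, with 10 false calls. The fit scaled to a sum of unchanged genes called 57 and 91 of them, with 9 false calls. In the real data 76.0% of genes were called, so the simulation cannot test the scaling. No 2 libraries of a group agreed within counting noise (chi-square per degree of freedom of at least 21.2 over all genes and 11.3 over the members).

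Genes named with values were both members of each pair, the 5 members with most CPM, the 5 lowest and 5 highest fold changes, the 3 lowest and highest relative to the family with a mean of at least 100 CPM, the multi-role members, and 2 genes per other list; others are said to be named for their values. Members, lists and tests were chosen with earlier results of these data known. Of the members, 82 are current RefSeq symbols and 1, rplp2l, is a synonym of rplp2b. Promoter motifs and protein sequences were not analysed here. 1 gene of the other lists is not reported here.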

Additional observations from a re-analysis of the deposited data

Results flagged for a closer look

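Of 84 sets of 4 values examined (shares, ratios, pair shares and the CPM of named members in each group), 1 held a library far from the other 3, where chance gives about 1 in 20. Rpl7l1 had 234.5 CPM in MYCN 4, against 105.7 to 109.4 CPM in the other MYCN libraries.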

How the results depend on the processing

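With libraries scaled on dbh and th, 1 member was lower (rpl22l1) and 3 were higher (rps8b, faub, rplp2) in place of 81 and 1. On that scale the other ribosomal genes outside the rule had 0 lower, the assembly genes 3 lower, and the TOP genes 2 lower and 9 higher. Of all 12126 genes it called 1029 lower and 8320 higher. With library totals 4 TOP genes were higher, beside 5507 of all genes. Among named members below 0 with TMM factors, those above 0 under the dbh and th scaling were (log2) rpl5a 0.051, rpl5b 0.13, rpl7 0.12, rps2 0.10, rps26l 0.21, rpl3 0.39, rpl39 0.54, rpl22 0.63 and rplp2 0.82. With median-of-ratios factors over the members, rps8a was at -0.0040 relative to the family. The large to small log2 ratio, myrAKT minus MYCN, was 0.03 from summed counts and 0.15 from median log2 CPM. The cause of these shifts was not tested. Leaving out single libraries, members higher numbered 1 to 2, and faub ran from -0.11 without MYCN 1 to 0.35 without MYCN 4. The 81 lower calls held in number under the 7 other settings of scaling, filter, test and block, and in each leave-one-out fit. Under those 7 settings the members' median log2 fold change ran from -1.58 with no filter to -1.16 with library totals. With 3 against 4 libraries the permutation test cannot go below p = 0.0571, so pair differences were only recomputed, and none changed direction.

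The replicate numbers did not pair the libraries: deviations from the group means correlated at -0.128, 0.00754, 0.12 and -0.176 for numbers 1 to 4. With the number as a block, 81 members were lower and 1 higher, and relative to the family 7 were lower and 8 higher in place of 8 and 10; rpl24, rpl21 and rps4x did not pass. Depth limits rps8b, faub and rpl37, whose counts ran from 92 to 1768.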
